A study of Mus musculus with 3 samples.

Results

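Mitochondrial carriers of the Slc25 family are the proteins that move nucleotides, phosphate, carboxylates, amino acids, cofactors and iron across the inner mitochondrial membrane. Their mRNAs were examined in a RIP-seq experiment, in which RNA recovered with an antibody against YTHDF2 (YTHDF2 IP) was sequenced beside input RNA. Members were all genes whose symbol was Slc25a followed by digits only, which gave 47 of the 49997 genes counted. All 3 libraries came from E14 mouse embryonic stem cells (ESCs) treated with doxycycline (Dox) for 24 h, and they comprised 1 input library and YTHDF2 IP replicates 1 and 2. Per the study, its inducible ESCs carry a Dox-inducible Dux transgene and a tdTomato reporter driven by the MERVL promoter. Dox, which all 3 libraries share, thus starts a 2-cell-like program in a part of the culture. The comparison asked which carrier mRNAs were over- or under-represented in the RNA recovered with YTHDF2. No library of untreated cells entered it. A control-antibody IP was not analysed here.

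Carriers of this family are encoded in the nucleus and made on cytosolic ribosomes, not at the endoplasmic reticulum. The finished protein crosses the outer membrane through the TOM complex, is chaperoned by small TIM proteins and is inserted into the inner membrane by TIM22. Once folded, a carrier alternates between a state open to the cytosol and a state open to the matrix, which exchanges a substrate on one side for a substrate on the other. YTHDF2 is a cytoplasmic reader of N6-methyladenosine (m6A) in mRNA and recruits the CCR4-NOT deadenylase, which shortens the poly(A) tail. m6A is placed within a short sequence context whose commonest core is GGAC, often near the stop codon.

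To show what this context looks like in the carriers that the results turn on, the GGAC closest to the stop codon is printed below for 4 sets of related carriers and 3 further genes. Each window holds 21 bases of the sense strand, 5′ to 3′, from the RefSeq transcript and the GRCm38 sequence, with GGAC in capitals. Whether any of these adenosines was methylated was not measured in the files used here.
Slc25a4: gtacacggGGACacttgactg
Slc25a5: aacattctGGACagattctct
Slc25a31: aaaagtcaGGACaaaaatttt
Slc25a33: tctaccgaGGACtgtttgctc
Slc25a36: atcacagtGGACcatggaatc
Slc25a28: tgctgagtGGACcagggtccg
Slc25a37: gagagggaGGACcggcctcca
Slc25a39: gcaccaggGGACtctttgcag
Slc25a40: cttatgatGGACatttgacat
Slc25a13: actgctggGGACtcctagagt
Slc25a30: aagaaactGGACttgtgacca
Slc25a51: atagagcgGGACaggaagctg

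In coding sequence lay the windows of Slc25a4 (chr8:46207590-46207610, minus strand), Slc25a33 (chr4:149744821-149744841, minus), Slc25a39 (chr11:102403633-102403653, minus), Slc25a13 (chr6:6042143-6042163, minus), Slc25a30 (chr14:75762646-75762666, minus) and Slc25a51 (chr4:45399340-45399360, minus). Their adenosine was 135, 91, 124, 5, 5 and 107 bases before the stop codon, in the same order. In the 3′ UTR lay those of Slc25a5 (chrX:36798602-36798622, plus), Slc25a31 (chr3:40725218-40725238, plus), Slc25a36 (chr9:97078985-97079005, minus), Slc25a28 (chr19:43664100-43664120, minus), Slc25a37 (chr14:69244692-69244712, minus) and Slc25a40 (chr5:8453301-8453321, plus). Here the adenosine was 70, 162, 53, 18, 134 and 15 bases after the stop codon. Carriers with more and with less RNA in the IP are found on both sides of the stop codon in these windows.

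Across the family some carriers were several-fold higher in the IP than in the input and others several-fold lower. Of the 44 members with enough counts to be tested, 8 were enriched at an adjusted p under 0.05 and a fold over 2 (edgeR's quasi-likelihood test, Benjamini-Hochberg adjustment over 19601 genes), which is 18.2%, beside 15.0% of all genes tested. Among the enriched members were Slc25a2, Slc25a28, Slc25a29, Slc25a33, Slc25a34, Slc25a47 and Slc25a51. Of these, Slc25a47 had enough counts to be tested only in the IP libraries, where it was high. By the same rule 6 members, or 13.6%, were depleted, beside 13.0% of all genes. These were Slc25a13, Slc25a16, Slc25a30, Slc25a31, Slc25a40 and Slc25a53. The shares past 2-fold lay near the background in both directions. At any fold, 18 members (40.9%) were higher in the IP, beside 28.4% of all genes, and 14 (31.8%) were lower, beside 28.9%, while 12 did not pass the test. No test set the shares of the family, or of any substrate group below, against those of all genes.

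The median log2 fold change (IP over input) of the 44 members was -0.04, with quartiles of -0.77 and 0.76, and over all genes it was 0.0063, with quartiles of -0.72 and 0.81. The family's median became 0.056 with library totals alone and 0.11 with scaling to TPM, which moved the median of all genes by 0.0957 and 0.151. Relative to all genes the family's median was -0.047 as reported and -0.046 under both of these scalings. It was 0.136 with the trend with GC content removed and 0.082 with that of exon density removed, so no direction is given for the family. All members together took 0.340% of the counts of the input (0.338% to 0.341%, Wilson 95% interval). Their share was 0.347% (0.345% to 0.348%) in the first and 0.350% (0.348% to 0.352%) in the second IP library. The family as a whole thus held nearly the same place in each library, while single members ranged from -3.34 to 3.89 on the log2 scale.

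The 2 IP libraries were close to each other in these genes. The SD of the difference between their log2 ratios was 0.371 over the 44 members, and 0.772 over all genes tested. The 2 sets were not matched for level. Both IP libraries lay on the same side of the input for 40 members, a count that was not taken over all genes. All 8 enriched and 6 depleted members were past 2-fold in each IP library, but they were called from the same 2 libraries. The input is a single library, so each p-value rests on the spread between 2 IP libraries that may be technical, and the input's own spread was not measured. With the dispersion set to 0.1, well above its estimate, 4 members were enriched (Slc25a2, Slc25a29, Slc25a34 and Slc25a47) and 3 were depleted (Slc25a16, Slc25a30 and Slc25a31).

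**Figure D1:**
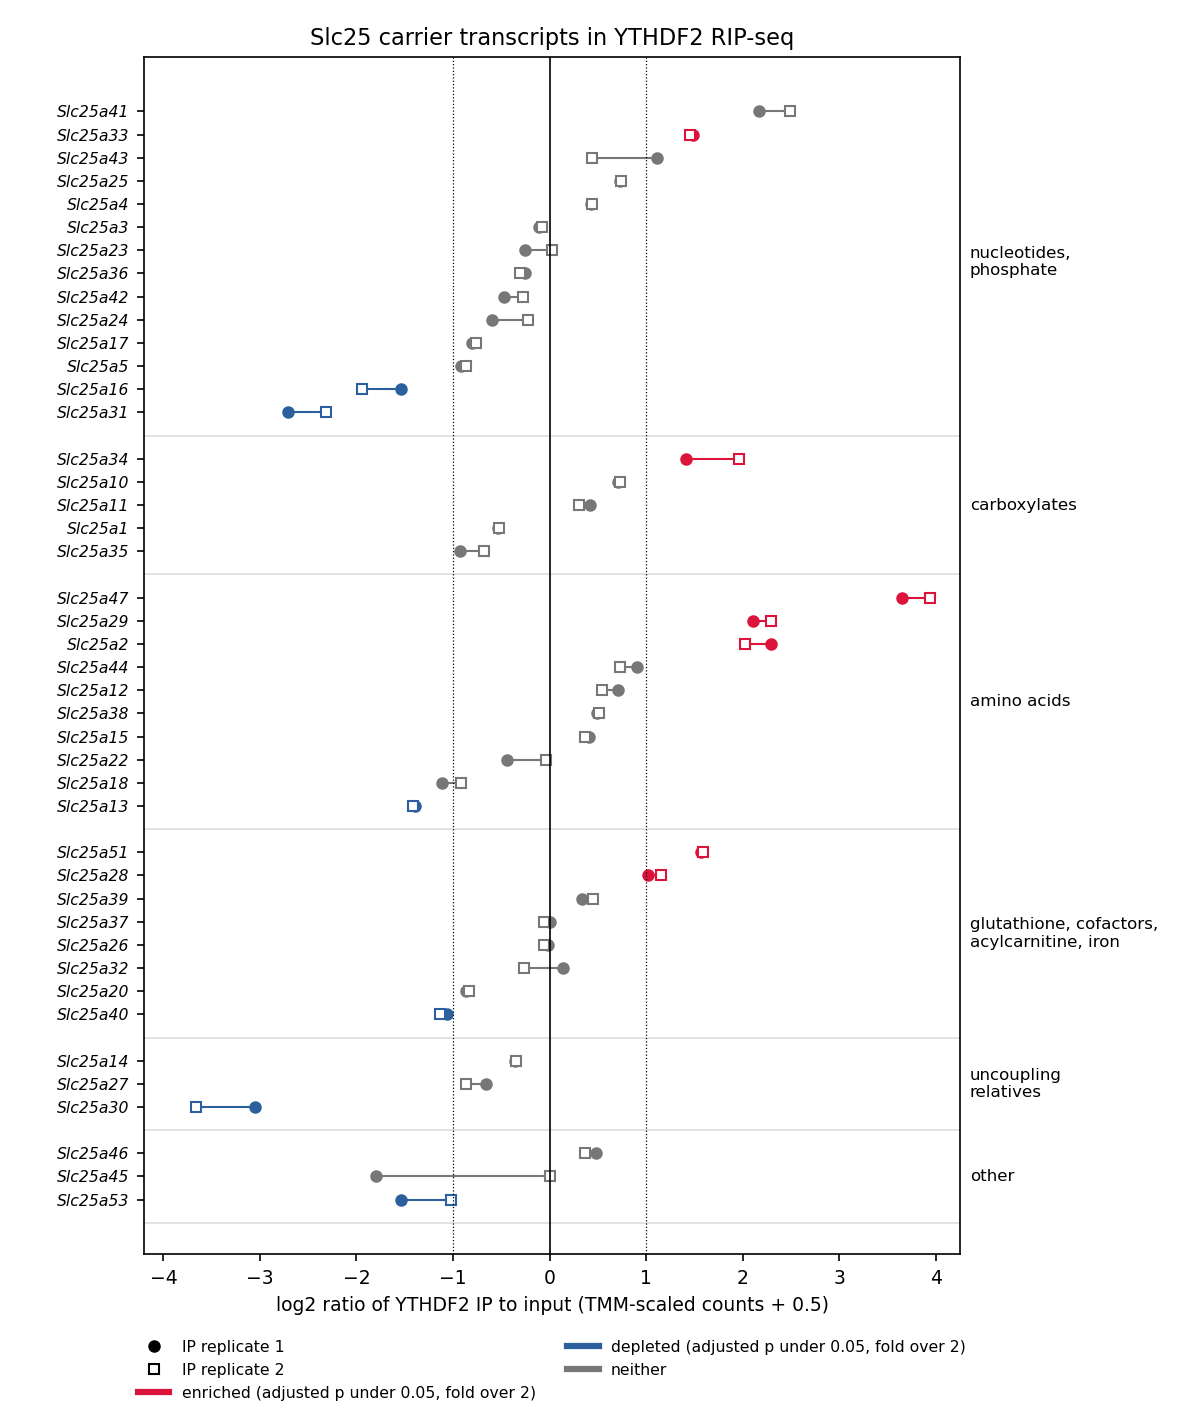
Log2 ratio of each YTHDF2 IP library to the input (horizontal axis, TMM-scaled counts with 0.5 added) for all but 1 of the 44 tested carriers, in blocks by substrate and ordered by fitted log2 fold change, with filled circles for IP replicate 1, open squares for IP replicate 2, colours for the call and dotted lines at 2-fold. Slc25a30 lies farthest to the left and Slc25a47 farthest to the right, the blocks of nucleotide, amino acid and cofactor carriers hold both enriched and depleted genes, and the IP libraries differ most for Slc25a45.

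The most abundant carriers supply the matrix with ADP and phosphate for ATP synthesis, and here the 3 ADP/ATP carriers went different ways. Slc25a4 (ANT1), which exchanges ADP for ATP and is the form of heart and muscle, had an input count of 11845 and IP counts of 16262 and 16603, in replicates 1 and 2. Both IP libraries were above the input, by 1.35-fold (log2 0.43 ± 0.054 SE, adjusted p = 6.92e-09). Slc25a5 (ANT2), the form typical of dividing cells, had 23642, 12784 and 13401 counts, listed like all counts below as input, IP replicate 1 and IP replicate 2. It was 1.86-fold lower in the IP (-0.89 ± 0.051, adjusted p = 6.42e-18). Slc25a31 (ANT4), the form of male germ cells, had 1056, 164 and 219 counts and was 5.67-fold lower (-2.50 ± 0.163, adjusted p = 6.15e-16), the second largest depletion of the family, which came to -1.87 with the GC trend removed. Under none of the alternatives tried did these 3 log2 fold changes turn sign.

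The order of the carriers by level differed between input and IP. Per kb of exon, Slc25a5 was the highest carrier of the input at 494 CPM, followed by Slc25a3 at 415 CPM and Slc25a4 at 240.4 CPM. In IP replicates 1 and 2 the order was Slc25a3 (412 and 420.4 CPM per kb), Slc25a4 (346 and 347) and Slc25a5 (280.0 and 288). Slc25a4 made up 33.4% of the reads of Slc25a4 and Slc25a5 in the input (Wilson 95% interval, 32.9% to 33.9%) but 56.0% (55.4% to 56.6%) and 55.3% (54.8% to 55.9%) in IP replicates 1 and 2. These intervals cover counting error only. Slc25a4 and Slc25a5 are close in sequence, and reads that map to several places are left out by default in the counting tool, so the level of each is uncertain to that extent. The annotated pseudogene Slc25a5-ps had 1, 0 and 4 counts.

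Slc25a3, the phosphate carrier, is the companion of the ADP/ATP carriers, since ATP synthase needs both substrates. It had 26454, 25061 and 26009 counts, with a log2 fold change of -0.09 ± 0.049 (adjusted p = 0.115). This value turned positive under 4 alternatives, among them total count scaling and scaling to TPM, which moved the median of all genes upward. Together Slc25a3, Slc25a4 and Slc25a5 held 49.3%, 44.3% and 44.6% of all carrier counts.

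**Figure D2:**
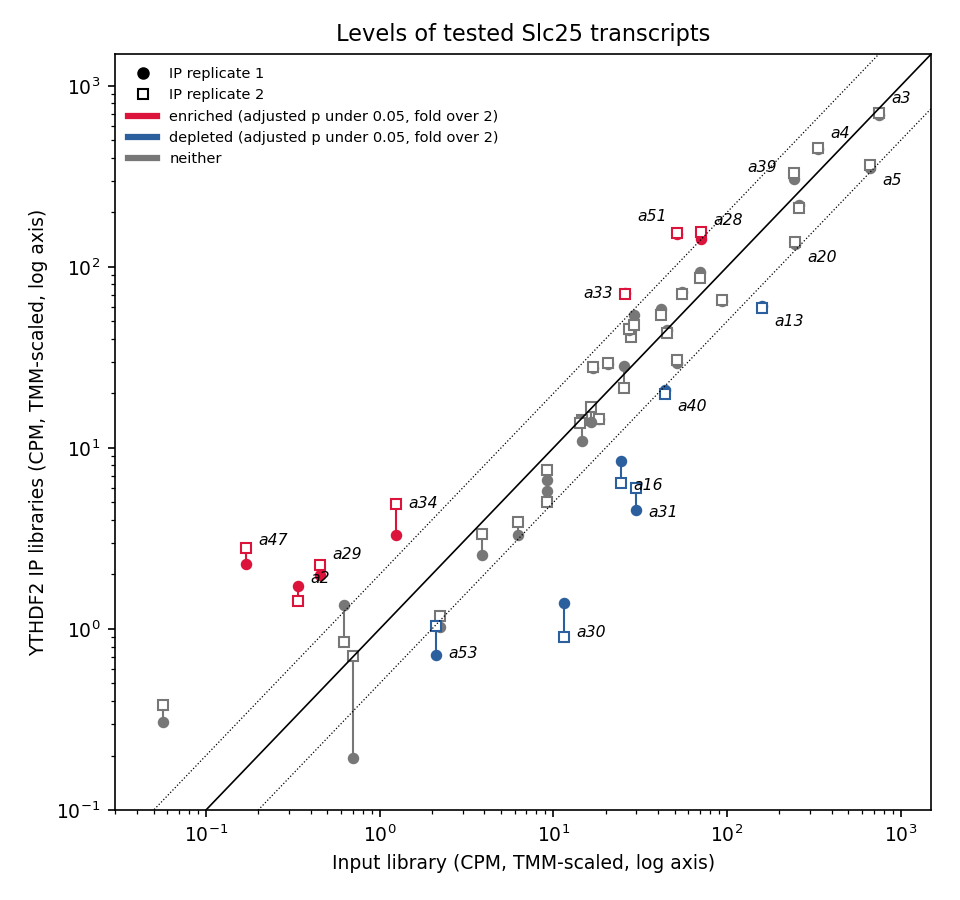
CPM of all but 1 of the tested carriers in the YTHDF2 IP libraries (vertical log axis) against the input (horizontal log axis), TMM-scaled and not divided by length, with filled circles for IP replicate 1, open squares for IP replicate 2, a solid line for equal levels and dotted lines at 2-fold. Labels leave out Slc25. The highest carriers a3, a4 and a5 lie within 2-fold of the input, whereas a2, a29, a34 and a47 are enriched at low levels.

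Other carriers of nucleotides held 1 enriched and 1 depleted member. Slc25a33 and Slc25a36 carry pyrimidine nucleotides into the matrix, where mitochondrial DNA and RNA are made. Slc25a33 had 910, 2597 and 2580 counts and was 2.77-fold enriched (1.47 ± 0.097, adjusted p = 5.03e-16). Slc25a36 had 9238, 7898 and 7741 counts and was 1.21-fold lower in the IP (-0.28 ± 0.058, adjusted p = 7.15e-05), a direction that turned to 0.40 once the trend with GC content was removed. Both IP libraries lay above the single input for Slc25a33 and below it for Slc25a36. Slc25a16, whose substrate has been linked to coenzyme A, had 870, 306 and 234 counts and was 3.31-fold depleted (-1.73 ± 0.163, adjusted p = 1.48e-11). Slc25a17, a carrier of peroxisomes rather than mitochondria that moves coenzyme A, FAD and NAD, was lower at -0.78 (adjusted p = 2.12e-08). Slc25a42, which carries coenzyme A into mitochondria, had a log2 fold change of -0.37 (adjusted p = 0.132), and passed the test with the GC trend removed (-0.65, adjusted p = 0.00699).

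The ATP-Mg/phosphate carriers set the size of the matrix adenine nucleotide pool, and of these Slc25a23, Slc25a24 and Slc25a25 are opened by calcium. Slc25a25 passed the test, with 959, 1624 and 1657 counts and a log2 fold change of 0.73 (adjusted p = 2.15e-07). Slc25a23 (-0.11, adjusted p = 0.58, and -0.40, adjusted p = 0.0238 with the GC trend removed) and Slc25a24 (-0.40, adjusted p = 0.293) did not, and Slc25a41 had only 2, 11 and 14 counts. Slc25a43 (0.82, adjusted p = 0.272) did not pass either. Over the 14 carriers of nucleotides and phosphate, 1 was enriched and 2 were depleted, 3 were higher and 5 lower at any fold, and the median was -0.19. These are 7.14% and 14.3% past 2-fold and 21.4% and 35.7% at any fold, beside 15.0%, 13.0%, 28.4% and 28.9% of all genes.

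Carriers of di- and tricarboxylates feed the citrate and malate routes between matrix and cytosol. Slc25a1, which exports the citrate used for fatty acid and sterol synthesis, had 3328, 2346 and 2399 counts and was 1.44-fold lower in the IP (-0.53 ± 0.076, adjusted p = 1.52e-07). Slc25a10, the dicarboxylate carrier, had 597, 998 and 1026 counts and was 1.65-fold higher (0.72 ± 0.129, adjusted p = 7.27e-06). Slc25a11, the malate/2-oxoglutarate carrier, had 2482, 3391 and 3185 counts and was 1.29-fold higher (0.37 ± 0.078, adjusted p = 0.00011). In each of these genes both IP libraries lay on the same side of the input, and none reached 2-fold. With the GC trend removed Slc25a11 no longer passed the test (0.17, adjusted p = 0.0659) and Slc25a1 came to -1.04, while with the exon density trend removed Slc25a1 did not pass it (-0.17, adjusted p = 0.0596). Of the exons of Slc25a11, 11.4% overlap Rnf167, and since the counting did not use strand, reads of the 2 genes in that stretch cannot be told apart.

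Slc25a34 and Slc25a35 are related to a yeast oxaloacetate carrier. Slc25a34 had 44, 120 and 179 counts and was enriched (1.72 ± 0.375, adjusted p = 0.00015). Slc25a35 had 222, 119 and 143 counts and was lower (-0.80, adjusted p = 0.0105). Of the 5 carboxylate carriers tested, 3 were higher and 2 lower at any fold, beside 28.4% and 28.9% of all genes, and the median was 0.37.

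Of the 10 amino acid carriers tested, 7 were higher and 1 was lower in the IP at any fold, 3 were enriched and 1 was depleted, and the median was 0.56. Of all genes 28.4% were higher, 28.9% lower, 15.0% enriched and 13.0% depleted, and the group was not tested against them. Slc25a12 and Slc25a13 are the calcium-regulated aspartate/glutamate carriers of the malate-aspartate shuttle, which passes reducing equivalents from cytosolic NADH into the matrix. Slc25a12 (aralar) had 993, 1655 and 1497 counts and was 1.54-fold higher in the IP (0.63 ± 0.111, adjusted p = 6.69e-06). Slc25a13 (citrin) had 5609, 2184 and 2176 counts and was 2.64-fold depleted (-1.40 ± 0.070, adjusted p = 1.37e-19). Per kb of exon, Slc25a13 stood at 33.6, 13.7 and 13.4 CPM, and Slc25a12 at 2.98, 5.21 and 4.63 CPM. Slc25a13 was the higher of the 2 throughout, by a smaller margin in the IP. Slc25a22, a glutamate carrier, had 520, 392 and 526 counts, with no difference past the test (-0.22 ± 0.168, adjusted p = 0.273) unless the GC trend was removed (-0.63, adjusted p = 0.00146), and its relative Slc25a18, with 79, 37 and 43 counts, stood at the threshold (-1.02 ± 0.447, adjusted p = 0.050).

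Among carriers of other amino acids, Slc25a15, the ornithine carrier of the urea cycle, was higher by 1.31-fold (0.39, adjusted p = 0.000132). Slc25a2, another ornithine carrier, had 12, 62 and 52 counts (2.20 ± 0.616, adjusted p = 0.00236). Slc25a38, a glycine carrier that serves heme synthesis in red cell precursors, was higher (0.50, adjusted p = 0.000568). So was Slc25a44, which carries branched-chain amino acids (0.82, adjusted p = 2.5e-08).

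Slc25a29, a carrier of basic amino acids, and Slc25a47, a carrier known mainly from liver, lie 13956 bases apart on chromosome 12 and on opposite strands. Slc25a29 had 16, 72 and 83 counts (2.23 ± 0.530, adjusted p = 0.000419), and its log2 fold change was 1.61 with the GC trend removed. Slc25a47 had 6, 83 and 103 counts, the largest difference of the family at 14.8-fold (3.89 ± 0.603, adjusted p = 6.35e-07). With 6 counts in the input, Slc25a47 passed the filter on low counts only through the IP libraries, where it was high. Its call and its rank thus rest in part on that filter. Slc25a29 and Slc25a47 were both low in the input and several-fold higher in each IP library. Strand was not used in the counting, so whether these reads were spliced carrier mRNA or other transcripts of the locus was not tested.

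Cofactor carriers supply the matrix with compounds that its enzymes need. Slc25a51 brings NAD into mitochondria, where dehydrogenases of the citric acid cycle use it. It had 1824, 5516 and 5664 counts and was 2.98-fold enriched (1.58 ± 0.074, adjusted p = 2.08e-20), the smallest adjusted p of the family. The carriers Slc25a26 and Slc25a32 did not pass the test. Slc25a26, which brings S-adenosylmethionine, the methyl donor, into the matrix, had 503, 509 and 502 counts (-0.03 ± 0.155, adjusted p = 0.877). Slc25a32, linked to folate and FAD, had 906, 1019 and 781 counts (-0.05 ± 0.138, adjusted p = 0.791), with the IP libraries on either side of the input. Both values turned positive under total count scaling and scaling to TPM, which moved the median of all genes by 0.0957 and 0.151. They also turned positive with the GC trend removed, where Slc25a32 reached 0.57 and passed the test (adjusted p = 0.000842). Slc25a26 turned positive with the exon density trend removed as well.

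Iron and glutathione carriers come in pairs of related genes, whose values are given side by side with no test of the difference. Slc25a28 (mitoferrin 2) and Slc25a37 (mitoferrin 1) import the iron used for heme and iron-sulfur clusters, the second mainly in red cell precursors. Slc25a28 had 2495, 5166 and 5733 counts and was 2.12-fold enriched (1.09 ± 0.074, adjusted p = 1.85e-15), a value that came to 0.53 once the trend with GC content was removed, which ends the call. Slc25a37 had 1590, 1628 and 1587 counts (-0.02 ± 0.098, adjusted p = 0.858). Its sign turned under total count scaling and scaling to TPM, which moved the median of all genes upward, and with no filter or removal of the GC trend.

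Slc25a39 and Slc25a40 carry glutathione, which the matrix cannot make for itself. Slc25a39 had 8555, 11043 and 12131 counts and was 1.32-fold higher (0.40 ± 0.059, adjusted p = 3.47e-07), a difference that came to 0.042 (adjusted p = 0.567) with the GC trend removed. Slc25a40 had 1553, 756 and 730 counts and was 2.15-fold depleted (-1.10 ± 0.113, adjusted p = 6.87e-11). Its value fell short of 2-fold with scaling to TPM (-0.95) and with the trends with GC content (-0.49) or exon density (-0.87) removed. Slc25a20, the carnitine/acylcarnitine carrier of fatty acid oxidation, had 8665, 4850 and 5028 counts and was 1.80-fold lower (-0.85 ± 0.060, adjusted p = 3.48e-15). Over the 9 carriers of glutathione, cofactors, acylcarnitine and iron, 3 were enriched and 1 depleted, 4 were higher and 2 lower at any fold, and the median was -0.02. Of all genes 15.0% were enriched, 13.0% depleted, 28.4% higher and 28.9% lower.

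All 3 relatives of the uncoupling proteins were lower in the IP at any fold, beside 28.9% of all genes, which held for Slc25a30 under all 11 alternatives with a test and not for the other two. Slc25a30 (KMCP1), known from kidney, had 409, 50 and 33 counts, and its 10.1-fold depletion was the largest of the family (-3.34 ± 0.285, adjusted p = 8.82e-13). Slc25a27 (UCP4) and Slc25a14 (UCP5 or BMCP1), both known from brain, were lower at -0.76 (adjusted p = 0.00341) and -0.35 (adjusted p = 0.0387), and Slc25a14 turned to 0.17 with the exon density trend removed. Slc25a27 did not pass the test with the GC trend removed (-0.37, adjusted p = 0.159) or in DESeq2 (adjusted p = 0.0793). Slc25a14 did not pass it in 6 alternatives besides the fixed dispersion, with adjusted p from 0.0691 to 0.333. The uncoupling protein genes that carry other names are reported with the related genes.

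Of the remaining members, Slc25a46, an outer membrane protein involved in mitochondrial shape, was higher (0.43, adjusted p = 0.000209), and came to 1.06 with the GC trend removed. Slc25a53 had 75, 26 and 38 counts and was depleted (-1.27 ± 0.480, adjusted p = 0.0232), a call that was lost in DESeq2 and with the GC trend removed (-0.79, adjusted p = 0.167). Slc25a45, with 25, 7 and 26 counts, did not pass the test (-0.64, adjusted p = 0.552), and its IP libraries differed from each other. The 3 members too low to test were Slc25a21, with 0, 4 and 0 counts, Slc25a48, with 4, 4 and 0, and Slc25a54, with 0 in every library, which allows up to 0.0811, 0.0851 and 0.0836 CPM in the input and IP replicates 1 and 2. With the members of at least 100 mean counts alone, 5 of 36 (13.9%) were enriched and 5 depleted, where the 15.0% and 13.0% of all genes carry no such minimum.

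Related carriers were set side by side in 11 sets of paralogs, of which 10 had at least 2 tested members. In 7 of the 10 sets the highest and the lowest member had log2 fold changes of opposite sign, and in 5 of these both members passed the test at any fold. Slc25a4 and Slc25a31 were 2.94 apart on the log2 scale, Slc25a12 and Slc25a13 2.03, Slc25a39 and Slc25a40 1.50, Slc25a33 and Slc25a36 1.75, and Slc25a34 and Slc25a35 2.52. The sign of Slc25a36 is the only one of these 10 that turned under an alternative, Slc25a39 no longer passed the test with the GC trend removed, and Slc25a35 did not pass it in DESeq2 (adjusted p = 0.137). In both IP libraries each of these gaps had the same direction, and the gap of Slc25a4 over Slc25a31, for example, was 3.14 in replicate 1 and 2.75 in replicate 2. In the other two sets, Slc25a28 and Slc25a37 were 1.11 apart with Slc25a37 not past the test, and neither Slc25a41, with 2 counts in the input, nor Slc25a24 passed it. Within the sets whose members had the same sign, the gap was 2.99 for Slc25a14 over Slc25a30, 1.81 for Slc25a2 over Slc25a15 and 0.80 for Slc25a22 over Slc25a18. The sets were picked by sequence family and their extremes by value, from the same IP libraries that show the shared direction of the gaps. Of all genes 28.4% were higher and 28.9% lower at any fold, so sets of other genes would often hold both signs. No such count was made for other genes, and the gaps are given with no test.

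**Figure D3:**
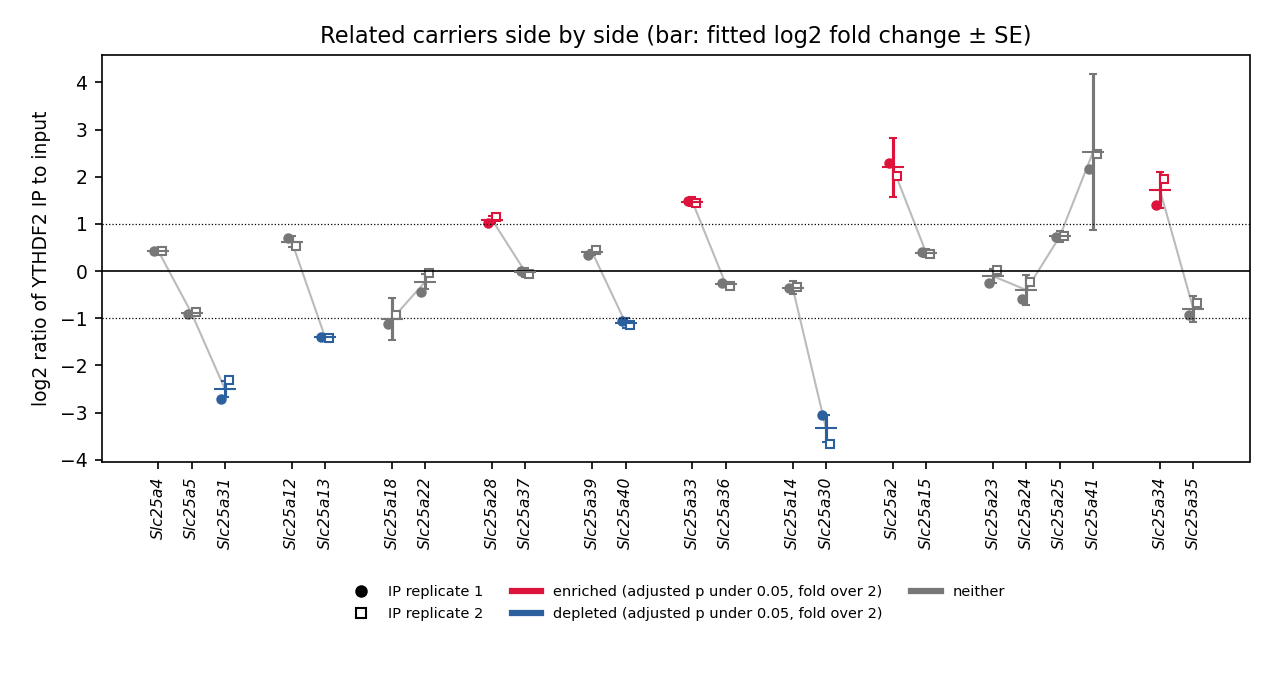
Log2 ratio of YTHDF2 IP to input (vertical axis) for the members of the 10 sets of related carriers, joined by grey lines, with filled circles for IP replicate 1, open squares for IP replicate 2 and a horizontal bar with its SE for the fitted log2 fold change. Slc25a4, Slc25a12 and Slc25a39 lie above 0, while their relatives Slc25a5, Slc25a31, Slc25a13 and Slc25a40 lie below it.

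The enriched and depleted carriers differed in base composition, which the choice of members did not use. Over merged exons, the median GC content of the 8 enriched members was 56.7% (range, 48.1% to 60.3%), and that of the 6 depleted members was 43.4% (40.9% to 47.4%). For all 44 tested members it was 49.5%, and for protein-coding genes tested 50.4%. The enriched members had a median of 5.43 GGAC per kb on the sense strand (2.23 to 7.68) and the depleted members 2.91 (2.66 to 3.32), beside 4.11 for all tested members and 4.04 for protein-coding genes. At least 1 GGAC was present in all 44 members and in 99.5% of protein-coding genes, so presence alone told no genes apart.

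Split at the GC content of the median protein-coding gene, the 19 members above it held 6 enriched and 0 depleted genes and had a median log2 fold change of 0.72. The 25 members at or below it held 2 enriched and 6 depleted genes, with a median of -0.35. Protein-coding genes split the same way, with 22.3% enriched and 5.30% depleted above this value (median 0.31) and 8.29% and 19.7% at or below it (-0.32), so the trend ran the same way in genes at large. Slc25a51, at 48.6% GC, and Slc25a2, at 48.1%, were the enriched members on the lower side. Across the 44 members, Spearman's rho with the log2 fold change was 0.49 for GC content (Pearson's r 0.52) and 0.50 for GGAC per kb (0.59), and across 15201 protein-coding genes it was 0.36 (0.33) and 0.28 (0.25). These describe genes that share the same 3 libraries and are not independent, and GC content and GGAC density are themselves tied through base composition. Members whose RefSeq transcript has more exons had lower values (rho -0.42), while 3′ UTR length stood at -0.07. These 2 were not taken for genes at large. Merged exons per kb, taken for both, had a rho of -0.21 in the members and -0.28 in protein-coding genes. The part of GC content in library preparation or in YTHDF2 recovery was not tested.

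**Figure D4:**
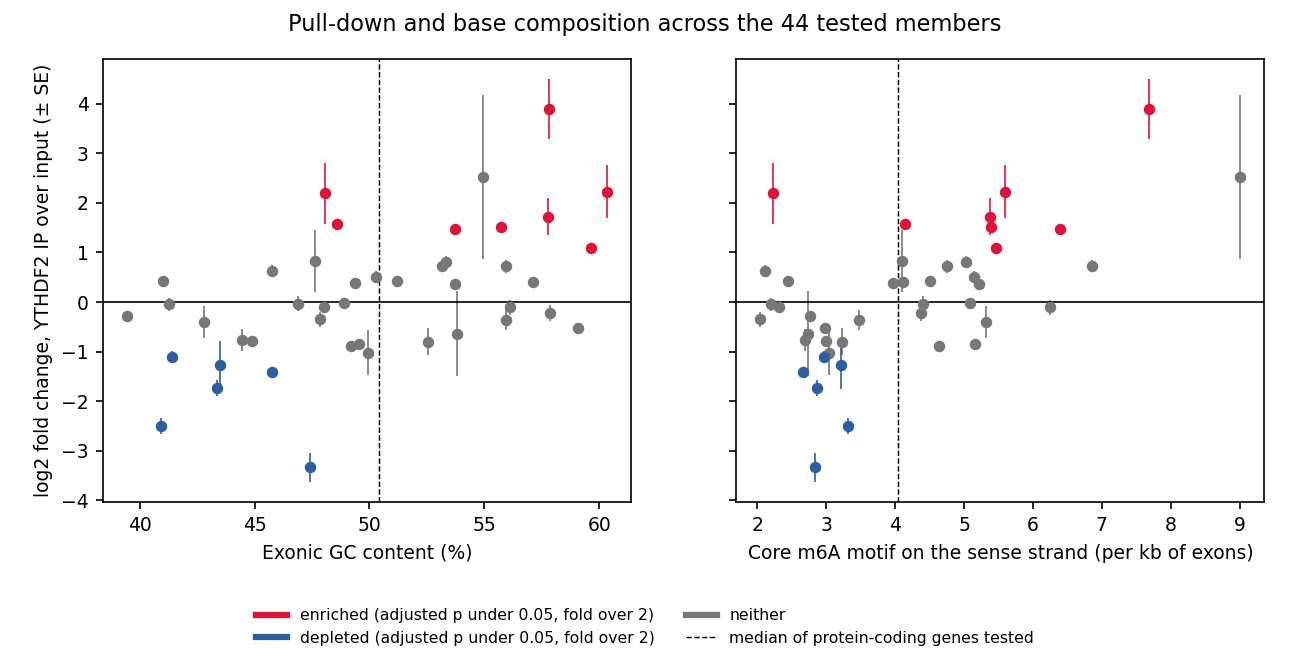
Fitted log2 fold change of IP over input with its SE (vertical axis) against exonic GC content in percent (left) and against the core m6A motif per kb of exons (right) for the 44 tested carriers, coloured by call, with dashed lines at the median of protein-coding genes. The 6 depleted carriers lie at 40.9% to 47.4% GC, and 6 of the 8 enriched carriers lie above the dashed line at 50.4%.

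Of the carriers that go under other names, 4 were tested and none was called, beside 15.0% of all genes enriched and 13.0% depleted. At any fold 3 were lower, beside 28.9% of all genes. Ucp2, an uncoupling protein, had 8797, 5447 and 6140 counts and was lower (-0.64, adjusted p = 3.69e-11), as was Mtch2, a carrier relative that inserts proteins into the outer membrane (-0.65, adjusted p = 1.38e-11). Mtch1 was lower by a smaller margin (-0.14, adjusted p = 0.0499). Ucp1, the uncoupling protein of brown fat, had only 6, 22 and 19 counts (1.71, adjusted p = 0.19).

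Of 16 genes of the machinery that imports carriers, 9 were higher and 3 lower at any fold (beside 28.4% and 28.9% of all genes), and 3 were enriched and 1 depleted (beside 15.0% and 13.0%), with a median of 0.39 and no test of the group. Enriched were Tomm5, a small subunit of the TOM complex (1.75), and the small TIM chaperones Timm8a1 (1.74) and Timm13 (1.11). Depleted was Agk, a lipid kinase that is also a subunit of TIM22 (-1.13). Tomm70a, the receptor that binds carrier precursors, was higher at 0.48. Among 11 inner membrane transporters of other folds, Abcb10, linked to heme synthesis, was enriched (1.26). Mpc1, a subunit of the pyruvate carrier (-2.16), and Sfxn3, a serine transporter (-1.55), were among the 3 depleted. These 3 are 27.3% of the list, beside 13.0% of all genes. At any fold 4 of the 11 were higher and 6 lower, beside 28.4% and 28.9%, the median was -0.37, and the list was not tested.

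Solute carriers outside Slc25 are mostly made at the endoplasmic reticulum and sent to the plasma membrane or to organelles. Of 317 such genes in the table, 242 were tested, of which 32 (13.2%) were enriched and 18 (7.44%) depleted, beside 15.0% and 13.0% of all genes, with a median of 0.10. The Slc25 carriers had 18.2% and 13.6% by the same rule, and the difference between the families was not tested.

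The libraries held 36986994 counts for the input and 35259827 and 35888743 for IP replicates 1 and 2. All 9 ESC markers were detected, with a summed level of 7913, 8460 and 8391 CPM, and at any fold 5 were higher and 4 lower in the IP. The 7 markers of 2-cell-like cells summed to 1710 CPM and to 2828 and 2816 in the IP libraries, which come from the same kind of culture as the input. Most of these counts were Zscan4c (1.14, enriched) and Zscan4d (0.41). Of the 7, 1 was enriched and 5 were higher at any fold, while Usp17la (-0.02, adjusted p = 0.774) and Duxf3 (0.64, adjusted p = 0.241) did not pass the test. Of all genes 15.0% were enriched, 28.4% higher and 28.9% lower. Markers of fibroblast feeders summed to 29.1 CPM and to 15.9 and 17.0, most of it Thy1, with Dcn at 0, and their part in the carrier values was not tested. All 13 mRNAs of the mitochondrial chromosome were depleted, with a median of -5.97.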

How the data were processed

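The 3 RIP-seq libraries (1 input, 2 YTHDF2 IP) of Dox-treated E14 cells were grouped by their titles. The labels describe Trizol RNA used in the IP, whereas the methods describe a cleared lysate made without detergent. The authors deposited raw counts per gene. Per the submitters' processing notes they used fastp 0.19.4, HISAT2 2.2.1 and DESeq2 1.40.2, and per the file headers featureCounts 2.0.3 over exons of mm10 RefSeq genes, without strand and with each mate counted singly, so counts are closer to read ends than to fragments and counting error is understated. Even numbers made up 61.4%, 64.5% and 64.7% of counts from 1 to 100 in the 3 libraries, in the order input, IP replicate 1 and IP replicate 2.

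Differences were tested with edgeR 4.0.16 in R 4.3.3 (filterByExpr, TMM factors of 0.957, 1.02 and 1.02, robust quasi-likelihood test, Benjamini-Hochberg adjustment over 19601 genes). Genes were called at an adjusted p under 0.05 and a fold over 2. The single input left 1 residual degree of freedom, and the common dispersion was 0.00538. SEs were derived from the F statistic. CPM per kb was taken from library totals, without TMM, and merged exon length. A count of 3 was taken as the floor. Log2 ratios of single libraries used 0.5 added counts. Sequence features came from the GRCm38.p6 sequence and RefSeq annotation (coordinates 1-based), whose gene starts and ends matched all 49632 genes on the main chromosomes. The test was checked on simulated data.

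Members, gene lists and tests were chosen with earlier results of these data known. Full values were given for called members of at least 10 CPM, for fixed carriers of ATP supply, shuttles, iron, glutathione, pyrimidine nucleotides, cofactors and acylcarnitine whatever their value, and for a few low members because a statement turned on them. Alternatives covered scaling, filters, dispersion, halved counts, trends with GC content, exon density and length, DESeq2 1.42.0, each IP library left out and, added after seeing the data, the fit without the robust option. Sequences of members on chromosome 18 were not printed, and protein sequences were not used here. The values of 1 member and 1 other gene are counted in the totals and not reported singly here.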

Additional observations from a re-analysis of the deposited data

How the results depend on the processing

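Every alternative but a fixed dispersion left the number of enriched and depleted members within 1.5 times that reported (8 and 6). With a dispersion of 0.1 these became 4 enriched and 3 depleted members (4 higher and 3 lower at any fold), and 1577 and 1531 of all genes in place of 2936 and 2543. This sets a spread far above that between the IP libraries, and Slc25a13, Slc25a28, Slc25a33, Slc25a40, Slc25a51 and Slc25a53 were among those that lost their call. The median of the members, -0.04, became 0.056 with total counts, 0.11 with scaling to TPM, 0.15 and 0.18 with the GC and exon density trends removed, -0.016 without a filter, -0.050 with halved counts, -0.032 with the length trend removed, and -0.014 to 0.0018 without 1 IP library. Without 1 IP library no residual degree of freedom was left, so no test was made. By fold alone 9 and 10 members were then enriched and 6 and 8 depleted, without IP replicate 1 and 2 respectively, and 3964 and 4062 of all genes were enriched and 3727 and 3700 depleted. Total count scaling moved the median of all genes by 0.0957. Scaling to TPM moved it by 0.151 and the share of enriched genes among all calls from 53.6% to 64.0%. The turns of sign listed next for these 2 scalings come with changes of about the size of these shifts, which all genes share, and are not particular to the members. The sign turned under an alternative with a test in 8 members, none of them enriched or depleted: with total counts Slc25a3 (0.0049), Slc25a26 (0.063), Slc25a32 (0.048) and Slc25a37 (0.072), with scaling to TPM the same genes (0.060, 0.12, 0.10 and 0.13) and Slc25a23 (0.045), without a filter Slc25a37 (0.00011), with the GC trend removed Slc25a3 (0.043), Slc25a24 (0.13), Slc25a26 (0.17), Slc25a32 (0.57), Slc25a36 (0.40) and Slc25a37 (0.041), and with the exon density trend removed Slc25a3 (0.25), Slc25a14 (0.17) and Slc25a26 (0.19). It also turned without IP replicate 1 in Slc25a23 (0.024) and Slc25a45 (0.0062), and without IP replicate 2 in Slc25a32 (0.15) and Slc25a37 (0.010), none of which passed the test. Slc25a36 also fell short of the test with scaling to TPM (adjusted p = 0.0534), and Slc25a3 passed it with the trend with length (-0.14, adjusted p = 0.0124) or exon density removed. The cause was not tested. Calls were gained by Slc25a18 with each trend removed, and by Slc25a1 (depleted, -1.04) and Slc25a46 (enriched, 1.06) with the GC trend removed, and Slc25a53 lost its call there (-0.79). The fit without the robust option changed no call of a member. No paired analysis was possible because only the IP libraries are numbered and there is 1 input. Depth limits the lowest members, of which 3 could not be tested.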

Other observations

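Besides Slc25a29 and Slc25a47, 3 further pairs of members lay within 100000 bases of each other. Slc25a5 and Slc25a43 on the X chromosome, 18289 bases apart, had log2 fold changes of -0.89 and 0.82, the latter not past the test. Slc25a23 and Slc25a41 on chromosome 17, 2056 bases apart, had -0.11 for Slc25a23 and 2, 11 and 14 counts for Slc25a41, which did not pass the test, and of Slc25a24 and Slc25a54 on chromosome 3, 6566 bases apart, Slc25a54 had no count.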
